A study of Rattus norvegicus with 85 samples.

Results

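The samples described here were brain punches from newborn Sprague-Dawley rats (P0) of the second filial generation (F2) of a stress line, named O2-PRS: 7 of prefrontal cortex (PFC) and 6 of amygdala (AMY), 13 of 85 samples in all, chosen by their labels for tissue, age, generation and treatment. The stress was applied to neither these pups nor their parents. Adolescent females of the founding generation went through an unpredictable stress procedure, were later mated, and their adult sons were mated with naive females, so that the O2-PRS pups descend from the stressed females through their fathers. Newborns of the same generation from unstressed founders (O2-C, 7 PFC and 7 AMY) and newborns of the first generation of the stress line (O1-PRS, 6 PFC and 6 AMY) served as comparison groups. By their labels the PFC samples came from 2 males and 5 females and the AMY samples from 1 male and 5 females. The study's methods describe the F2 pups taken as males, but also say that both sexes of offspring were pooled in every experiment. Neither the litter of a pup nor whether any PFC and AMY sample came from one pup is given, so samples were treated as unpaired, and the p-values measure the spread between these samples.

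Adenosine-to-inosine editing is carried out by ADAR enzymes on double-stranded stretches of RNA, and sequencing reads inosine as G. In coding sequence it can change an amino acid, and in the brain many of the recoded transcripts encode neurotransmitter receptors and ion channels, whose kinetics, ion permeability or coupling to G proteins depend on the edited residue. Editing in 3' untranslated regions (UTRs) leaves the protein unaltered. The assay was mmPCR-seq, which amplifies chosen stretches of transcripts from cDNA in pooled PCRs before sequencing. The editing level of a site is the percentage of its reads that carry G. A site was used in a sample where it had at least 50 reads, and 146 sites annotated by the study, all of which had at least 3 such samples on each side, were tested.

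The primer pairs that bound the stretches read at the receptor and channel sites below are shown because each level refers to that stretch of that transcript and to nothing else of the gene. Capitals mark the part designed on the transcript, and lower case marks 1 of the 2 tails that all primers carry.
Htr2c sites A to D, forward: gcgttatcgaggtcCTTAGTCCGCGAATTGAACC
Htr2c sites A to D, reverse: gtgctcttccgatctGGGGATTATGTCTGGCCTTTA
Grik2 Y/C, forward: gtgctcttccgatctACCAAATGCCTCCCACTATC
Grik2 Y/C, reverse: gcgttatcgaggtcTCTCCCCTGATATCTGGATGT
Gabra3, forward: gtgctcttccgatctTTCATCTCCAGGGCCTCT
Gabra3, reverse: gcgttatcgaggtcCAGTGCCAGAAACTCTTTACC
Kcna1, forward: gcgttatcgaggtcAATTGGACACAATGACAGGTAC
Kcna1, reverse: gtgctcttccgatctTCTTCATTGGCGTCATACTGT
Kcnma1, forward: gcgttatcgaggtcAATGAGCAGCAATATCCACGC
Kcnma1, reverse: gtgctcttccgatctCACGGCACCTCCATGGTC
One pair covers all 4 Htr2c sites, so their levels come from the same PCR products. Coordinates are those of the rat genome build rn4.

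Summed coverage of the 146 sites, in which a read adds to every site it spans, ranged from 911001 to 3274843 in the PFC samples and from 1893456 to 2712029 in the AMY samples. PFC sample 129 was the shallowest. No molecular identifiers were used, so that intervals from reads cover counting error only, and the 95% Wilson interval of a level of 50% runs from 36.6% to 63.4% at 50 reads. The libraries were divided by their numbers into sets of 48, the number of samples that a chip of the kind used takes. The labels name no chip, so that these sets are inferred. Libraries 145 to 192 held 2 PFC and 2 AMY samples, and libraries 241 to 288 held 5 PFC and 4 AMY samples. Both males among the PFC samples and the only male among the AMY samples were in the first of these sets. The files hold no expression values, so the tissue labels could not be checked against marker genes, and the cell makeup of the punches was not tested.

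In O2-PRS newborns, editing of receptor and channel transcripts was lower in PFC than in AMY at 5 recoding sites. They lie in the serotonin receptor Htr2c, the kainate receptor subunit Grik2, the GABA-A receptor subunit Gabra3 and the potassium channels Kcna1 and Kcnma1. Of all 146 sites tested, 8 (5.48%) passed a false discovery rate (FDR) of 0.1 in an exact two-sided Mann-Whitney U test, 7 of them lower in PFC (4.79%) and 1 higher. All 8 change an amino acid: they are 8 of 41 nonsynonymous sites tested, whereas 0 of 105 other sites passed. The 2 classes were adjusted separately, and with all sites adjusted together only 2 passed, 1 in each class (Grik2 Y/C and the Ankrd28 3' UTR site at position 7169220). With separate adjustment the lowest adjusted p among the other sites was 0.122 in the exact test. Without adjustment 26 sites had an exact p under 0.05, of which 21 were lower in PFC and 5 higher. The mean level was lower in PFC at 91 sites and higher at 54, with a median difference over all sites of -0.06 percentage points. At 3 sites (2.05%) the regions did not overlap: Grik2 Y/C, Mcrs1 and a site in the Ankrd28 3' UTR. Of the 8, the sites in Grik2, Gabra3, Kcnma1 and Htr2c also passed when the level was recomputed from the reads without rounding, an alternative chosen after seeing the data, while those in Kcna1, Mcrs1, Nova1 and Son did not.

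**Figure D1:**
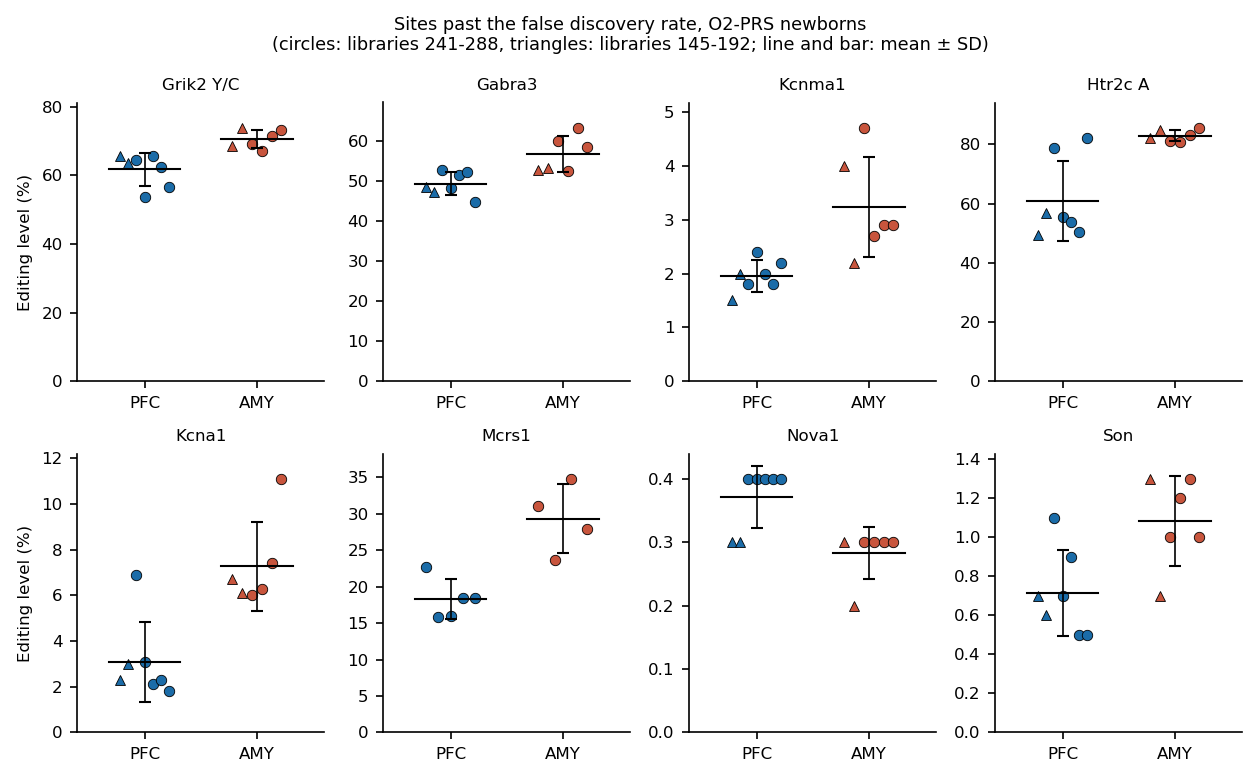
Editing level (%) in each O2-PRS newborn sample, PFC in blue and AMY in red, at the 8 sites past the FDR; circles are libraries 241 to 288, triangles libraries 145 to 192, and lines with bars are the mean ± SD. AMY lies above PFC at 7 sites without any overlap at Grik2 Y/C and Mcrs1, and PFC lies above AMY at the Nova1 site, where all levels are under 1%.

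Htr2c encodes the 5-HT2C receptor, a G protein-coupled serotonin receptor, and its edited codons lie in the second intracellular loop, which contacts the G protein. Site A (chromosome X, position 31041849, minus strand, Ile to Val) was edited at 49.4, 56.7, 78.7, 55.6, 53.9, 50.3 and 82.2% in PFC samples 158, 159, 124, 126, 132, 133 and 129. In AMY samples 117, 146, 118, 120, 115 and 116 the levels were 82.3, 84.8, 81.2, 80.9, 83.2 and 85.6%. All AMY samples thus lay within a narrow band. Of the PFC samples 5 lay far below it, 124 lay just below and 129 lay inside it. The means were 61.0% ± 13.6 (SD, n = 7) and 83.0% ± 1.91 (SD, n = 6). Site A was lower in PFC by a difference of -22.03 points ± 5.2 (SE; exact p = 0.00466, adjusted p = 0.0478).

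Site B (position 31041847, Ile to Met), in the codon of site A, had levels of 37.0, 52.0, 73.8, 43.4, 43.2, 41.2 and 67.0% in the same order of PFC samples, against 69.0 to 73.5% in AMY. Samples 124 and 129 were again the highest of PFC, and 124 exceeded every AMY sample. The means were 51.1% ± 14.1 (SD, n = 7) and 71.5% ± 1.5 (SD, n = 6), and the difference of -20.36 points ± 5.35 (SE) did not pass the FDR (exact p = 0.0350, adjusted p = 0.120). A permutation test of the means in place of ranks gave an exact p of 0.0105 and passed. Sites C and D gave no such separation. Site C (position 31041842, Asn to Ser) was at 29.6% ± 2.08 (SD, n = 7) in PFC and 31.1% ± 2.81 (SD, n = 6) in AMY, with a 95% interval of the difference from -4.68 to 1.59 points. Site D (position 31041837, Ile to Val) was at 57.6% ± 6.07 (SD, n = 7) and 55.9% ± 3.83 (SD, n = 6), with an interval from -4.46 to 7.88 points. These intervals use the SE and Satterthwaite degrees of freedom. Samples 124 and 129 lay within the range of the other PFC samples at both C and D. Of the 2 sites in the Htr2c 3' UTR, one was at 8.83% and 9.65% and the other at 0.543% and 0.467% in PFC and AMY, and neither passed the test.

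**Figure D2:**
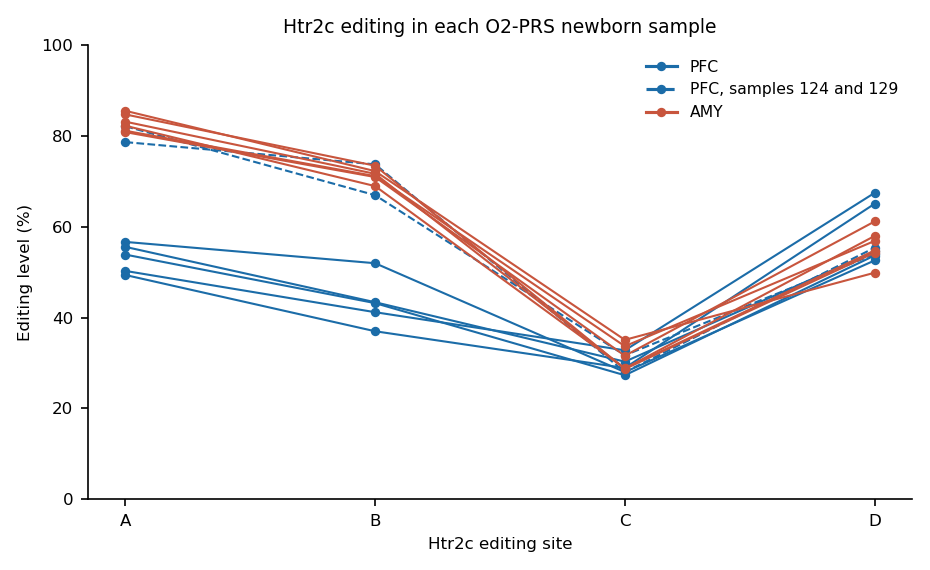
Editing level (%) at Htr2c sites A to D, with 1 line per O2-PRS newborn sample; PFC is blue, dashed for samples 124 and 129, and AMY is red. At A and B 5 PFC samples run below the AMY samples and samples 124 and 129 run with them, while at C and D the regions overlap.

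Grik2 encodes a subunit of kainate-type glutamate receptors, and its recoding sites lie in the first transmembrane segment (I/V and Y/C) and in the pore loop (Q/R), where editing lowers calcium permeability. Y/C (chromosome 20, position 53408958, minus strand) was edited at 65.6, 63.6, 64.5, 53.6, 65.6, 62.5 and 56.6% in PFC, in the order above, and at 68.6, 73.8, 69.0, 67.2, 71.3 and 73.3% in AMY. Every PFC sample was lower than every AMY sample, and samples 126 and 129 were the lowest. The PFC mean of 61.7% ± 4.73 (SD, n = 7) and the AMY mean of 70.5% ± 2.69 (SD, n = 6) differed by -8.82 points ± 2.10 (SE), with an exact p of 0.000583 and an adjusted p of 0.0239. Among 1716 splits of 13 samples the smallest exact two-sided p is 0.00117 without ties, and ties within a site can lower it to 0.000583, as here.

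The Q/R site (position 53378633) showed levels from 66.9 to 82.0% in PFC and from 79.1 to 88.8% in AMY. The means of 74.7% ± 5.50 (SD, n = 7) and 82.9% ± 3.76 (SD, n = 6) differed by -8.20 points ± 2.58 (SE), just outside the FDR (exact p = 0.0221, adjusted p = 0.101). The I/V site, a few bases from Y/C, varied widely within both regions, from 32.5 to 65.1% in PFC and from 49.1 to 73.6% in AMY, and its difference of -6.55 points had a 95% interval from -21.64 to 8.55. The remaining Grik2 sites were edited at 0.5 to 2.93%, and all 6 sites of the gene had the lower mean in PFC. Grik1, a related kainate subunit with a Q/R site of its own (chromosome 11, position 27749588), was edited at 27.4% ± 9.35 (SD, n = 7) in PFC and 24.3% ± 7.10 (SD, n = 6) in AMY. The interval of that difference ran from -6.92 to 13.22 points.

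The AMPA receptor subunits Gria2, Gria3 and Gria4 carry the fast excitatory current, and none of their 10 sites passed. At the R/G sites, which set how fast the receptor recovers from desensitization, the PFC mean was the lower in each gene. Gria2 R/G was at 37.7% ± 10.0 (SD, n = 7) in PFC and 46.6% ± 8.02 (SD, n = 6) in AMY, Gria3 R/G at 58.5% ± 9.49 and 63.0% ± 6.09, and Gria4 R/G at 26.1% ± 5.57 and 31.7% ± 4.15. Their exact p-values were 0.234, 0.445 and 0.0734. The 95% intervals of the differences, from -19.95 to 2.12, from -14.17 to 5.21 and from -11.48 to 0.44 points, hold both 0 and differences as large as those at the Grik2 sites. The Gria2 Q/R site, where editing blocks calcium entry through the pore, was near complete in both regions, at 99.5% ± 0.215 (SD, n = 7) and 99.6% ± 0.103 (SD, n = 6). The synonymous Gria2 Q site beside it was at 24.1% and 20.7%, and the other 5 sites of these genes were under 1% in both regions.

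Within each region, the glutamate receptor sites ordered the samples much alike. Over the 8 recoding sites of Gria2, Gria3, Gria4, Grik1 and Grik2 with a mean of at least 10%, PFC samples 126 and 129 were each among the 2 lowest of PFC at 7 sites. AMY samples 146 and 116 were the 2 highest of AMY at all 8. Samples 126 and 129 had the lowest mean level over all sites (below), a mean that includes these 8 sites. The depth of the 2 samples differed, with 2399718 and 911001 reads summed over sites. The order at Htr2c A was another one, in which 129 was the highest of PFC. What sets the order of the samples was not tested.

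Gabra3, a subunit of the GABA-A receptor, is recoded at the I/M site (chromosome X, position 158405626, minus strand), in the third transmembrane segment. Levels were 48.5, 47.3, 52.7, 48.2, 51.5, 52.2 and 44.9% in PFC and 52.8, 53.4, 59.9, 52.6, 63.3 and 58.4% in AMY, in the orders given. One PFC sample, 124, reached into the AMY range by a narrow margin, and the other 6 lay below it. The difference was -7.40 points ± 2.12 (SE), between 49.3% ± 2.89 (SD, n = 7) and 56.7% ± 4.46 (SD, n = 6; exact p = 0.00233, adjusted p = 0.0398).

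The 2 potassium channel sites were edited at low levels and were lower in PFC. Kcna1 encodes a voltage-gated channel of the Kv1 family, and editing at its I/V site (chromosome 4, position 163012291, minus strand) in the pore speeds recovery from inactivation. Its levels were 2.3, 3.0, 6.9, 3.1, 2.1, 2.3 and 1.8% in PFC and 6.7, 6.1, 6.0, 6.3, 7.4 and 11.1% in AMY. PFC sample 124, one of the pair with high Htr2c A and B, lay inside the AMY range, while sample 129, the other of that pair, had the lowest level of all. The difference was -4.20 points ± 1.03 (SE), between 3.07% ± 1.75 (SD, n = 7) and 7.27% ± 1.95 (SD, n = 6; exact p = 0.0128, adjusted p = 0.0926).

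Kcnma1 encodes the pore-forming subunit of the calcium-activated BK channel. Its site (chromosome 15, position 322937, plus strand, Ser to Gly) was at 1.5, 2.0, 1.8, 2.4, 2.0, 1.8 and 2.2% in PFC and at 4.0, 2.2, 4.7, 2.7, 2.9 and 2.9% in AMY. Samples 117 and 118 were the highest of AMY, and only AMY sample 146 lay within the PFC range. The means were 1.96% ± 0.294 (SD, n = 7) and 3.23% ± 0.929 (SD, n = 6), with a difference of -1.28 points ± 0.40 (SE; exact p = 0.00291, adjusted p = 0.0398). Of the other channel sites, the 3 in the calcium channel Cacna1d had equal or higher means in PFC and did not pass.

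The remaining 3 sites past the FDR, like Kcna1, passed narrowly. Each of these 4 had an adjusted p of 0.0926 in the exact test. Each passed in at most 2 of the 13 runs that left out 1 sample. The adjusted p is shared because the adjustment carried the value of Son to the others. Their calls thus depended on one another, and that of Nova1 rested on rounding (below). Mcrs1, which encodes a nuclear protein of chromatin complexes, has a Lys to Glu site (chromosome 7, position 138004466, minus strand). It was edited at 22.7, 15.8, 16.0, 18.4 and 18.5% in PFC samples 124, 126, 132, 133 and 129 and at 31.1, 23.6, 34.8 and 27.9% in AMY samples 118, 120, 115 and 116, without overlap. The other 4 samples, all of libraries 145 to 192, had fewer than 50 reads there. The difference was -11.07 points ± 2.68 (SE), between 18.3% ± 2.78 (SD, n = 5) and 29.4% ± 4.76 (SD, n = 4; exact p = 0.0159, adjusted p = 0.0926). In Son, a splicing cofactor, an Arg to Gly site (chromosome 11, position 31628548, plus strand) was at 0.714% ± 0.219 (SD, n = 7) in PFC and 1.08% ± 0.232 (SD, n = 6) in AMY (exact p = 0.0181, adjusted p = 0.0926).

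Nova1, a neuronal splicing factor, had the one site past the FDR with the higher level in PFC (chromosome 6, position 66199121, minus strand, Lys to Glu). Its deposited levels were 0.3 or 0.4% in each PFC sample and 0.2 or 0.3% in each AMY sample, which is to say that they differed in the last deposited decimal. From unrounded reads the exact p was 0.138 and the adjusted p 0.434, in place of an exact p of 0.0163 and an adjusted p of 0.0926.

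Other sites had the higher mean in PFC without passing. The 3 with the largest such difference were in Igf1, Gtf3c2 and the Gria2 Q site. Igf1 encodes insulin-like growth factor 1, and its 3' UTR site (chromosome 7, position 24605672, plus strand) was edited at 37.0, 25.2, 20.5, 30.8, 18.9, 17.1 and 32.4% in PFC and at 17.1, 16.7, 19.0, 8.8, 9.3 and 11.9% in AMY. Most PFC samples exceeded every AMY sample, with 18.9 and 17.1% as the exceptions. The means of 26.0% ± 7.59 (SD, n = 7) and 13.8% ± 4.36 (SD, n = 6) differed by 12.19 points ± 3.38 (SE; exact p = 0.00583, adjusted p = 0.235). The site that the study names for Gtf3c2, a subunit of a transcription factor for RNA polymerase III (chromosome 6, position 25180878, Thr to Ala), ranged from 8.2 to 28.0% in PFC and from 1.4 to 18.2% in AMY. It did not pass (exact p = 0.0350, adjusted p = 0.120).

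Flna encodes filamin A, which cross-links actin. Its Gln to Arg site (chromosome X, position 160382329) was at 8.19% ± 3.84 (SD, n = 7) in PFC and 4.77% ± 0.880 (SD, n = 6) in AMY, with PFC samples 158 and 133 the highest at 11.6 and 15.2% (exact p = 0.0268, adjusted p = 0.110).

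Adarb1 encodes the editing enzyme ADAR2, which edits its own transcript. None of its 4 sites here passed: the most edited was at 64.9% in PFC and 68.4% in AMY, and another at 38.9% and 37.6%. Both Mmgt1 sites, in a 3' UTR, had the lower mean in PFC (1.89 against 2.53% and 0.929 against 1.13%) and did not pass. In the Ankrd28 3' UTR, a cluster of 20 sites edited at 0.557 to 7.77% in PFC and 0.6 to 7.23% in AMY, 8 sites had the lower mean in PFC and 12 the higher, and none passed. The site at position 7169220 of chromosome 16 was the exception in that its regions did not overlap, with 2.4 to 3.3% in PFC and 3.4 to 4.5% in AMY. It did not pass because sites other than nonsynonymous ones were adjusted as a family of 105 (exact p = 0.00117, adjusted p = 0.122).

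**Figure D3:**
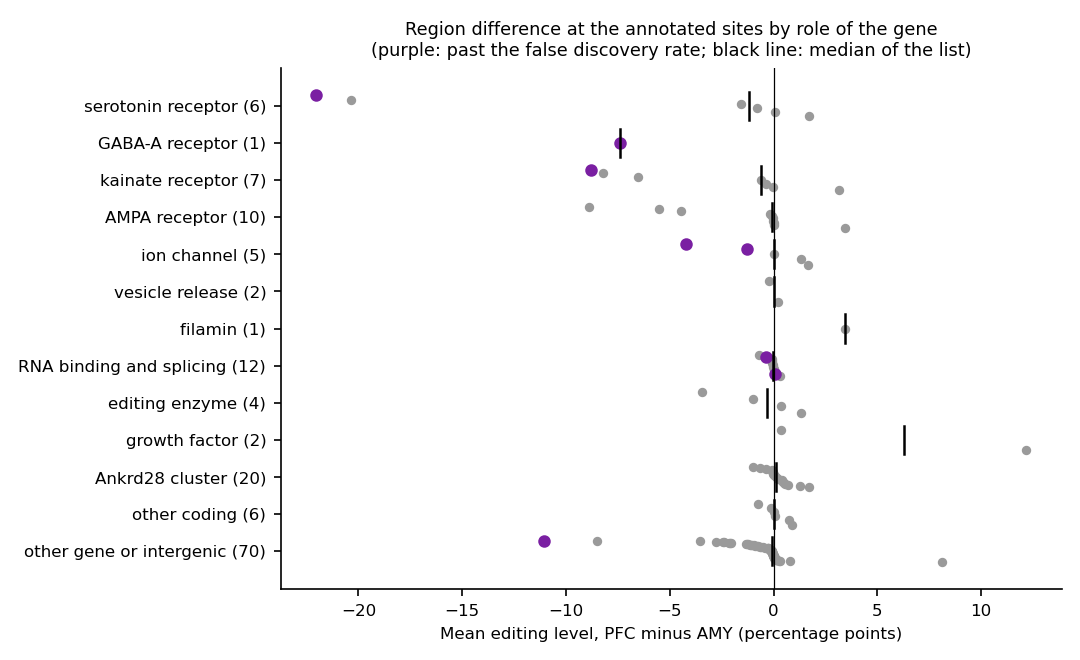
Mean editing level in PFC minus that in AMY (percentage points) at each of the 146 sites, grouped by the role of the gene with the number of sites in parentheses; purple points passed the FDR and black lines are list medians. The largest negative differences are at Htr2c A and B, the largest positive one is at Igf1, and most sites lie near 0.

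By role of the gene, the nonsynonymous sites of receptors and channels were 5 of 20 past the FDR, all lower in PFC, and 15 of 20 had the lower mean in PFC, with a median difference of -2.87 points. Over all 41 nonsynonymous sites, adjusted in the same family, 19.5% passed with a median difference of -0.09 points, a share close to the 25% of the receptor and channel sites. Over all 146 sites 5.48% passed and the median difference was -0.06 points. Of the 7 kainate receptor sites 6 had the lower mean in PFC, and of the 10 AMPA receptor sites 7 did. The 12 sites in RNA-binding and splicing genes were all at or under 1.74% in both regions, with a median difference of -0.02 points. These lists were drawn up with earlier results of the data known, and their counts are descriptive.

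The mean editing level over the 138 sites measured in all 13 samples was 8.84, 8.81, 8.91, 7.49, 8.52, 9.31 and 7.64% in PFC and 9.01, 9.75, 9.06, 8.42, 9.15 and 10.1% in AMY. Samples 126 and 129 were the lowest and the regions overlapped. The difference of -0.74 points ± 0.35 (SE), between 8.5% ± 0.682 (SD, n = 7) and 9.25% ± 0.586 (SD, n = 6), did not pass a threshold of 0.05 (exact permutation p = 0.0682). Over the 40 nonsynonymous sites among them the means were 20.7% ± 1.61 and 22.7% ± 1.44 (exact permutation p = 0.0443), and over the 98 others 3.54% ± 0.383 and 3.77% ± 0.365 (exact permutation p = 0.302).

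Region differences were also read within each set of libraries and within each sex. These splits largely overlapped, because every O2-PRS sample of libraries 241 to 288 was female. The sites past the FDR were picked on the same O2-PRS samples. Their agreement in direction was thus largely built in and is no separate support. Every sample measured at Mcrs1 lay in libraries 241 to 288, so that its difference there is the one over all samples. In libraries 241 to 288 all 8 sites past the FDR differed in the same direction as over all samples, and in libraries 145 to 192 all 7 measured there did. Htr2c A differed by -18.59 points in the former and by -30.50 in the latter, and Grik2 Y/C by -9.64 and -6.60. In females alone the differences at these sites were -18.50 and -9.32 points. With 5 samples against 4 or 5, no site passed the FDR in the exact test within the larger set or within females. There, 14 and 15 sites had an unadjusted exact p under 0.05, and the smallest exact p that those designs allow without ties is 0.0159 and 0.00794.

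Whether the region difference was particular to the F2 stress line was tested against the same difference in O2-C and in O1-PRS newborns. The difference between the differences was compared by an exact permutation of the group labels within each region. A group difference common to both regions also widens the spread of that test. A count of 0 sites therefore does not show that the region effects were equal. Both comparisons share the O2-PRS samples. By the labels O2-C was mostly male (5 of 7 PFC and 6 of 7 AMY samples), whereas O2-PRS was mostly female, so that sex largely coincides with group in that comparison and its part was not tested. O1-PRS held 3 males and 3 females in each region. Against O2-C, 0 of 142 sites passed the FDR (0.0%) and 8 had an unadjusted exact p under 0.05. Against O1-PRS, 0 of 146 sites passed (0.0%) and 3 had an unadjusted exact p under 0.05. A limma interaction fit on log-odds also called 0 sites in either comparison, with 10 and 12 sites at an unadjusted p under 0.05.

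Grik2 Y/C was at 59.6% in PFC and 68.1% in AMY of O2-C, and at 58.0% and 65.5% in O1-PRS. The O2-PRS difference exceeded these by -0.26 points (95% interval from -5.87 to 5.34) and -1.29 points (from -15.29 to 12.71). At Gabra3 the O2-C means were 50.7% and 61.3% and the O1-PRS means 50.6% and 55.9%, and the intervals of the difference between differences ran from -2.13 to 8.49 and from -9.54 to 5.26 points. Kcna1 was at 1.61% and 4.57% in O2-C and at 2.08% and 4.6% in O1-PRS. At Kcnma1 the levels were 1.82% and 3.00% in O2-C and 2.55% and 3.02% in O1-PRS. These 4 sites thus had the lower mean in PFC in all 3 groups, with no difference between the groups' region effects detected.

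Htr2c was less settled. Site A was at 28.7% ± 14.9 (SD, n = 7) in PFC and 58.9% ± 16.8 (SD, n = 7) in AMY of O2-C, and at 27.8% ± 24.2 (SD, n = 6) and 74.6% ± 5.92 (SD, n = 6) in O1-PRS. The region difference at A was smaller in O2-PRS by 8.10 points than in O2-C (95% interval from -12.86 to 29.06; exact p = 0.601) and by 24.69 points than in O1-PRS (from -1.47 to 50.84; exact p = 0.0860, adjusted p = 0.494). At site B the O2-PRS difference of -20.36 points stood against -43.85 points in O1-PRS, a contrast of 23.49 points whose 95% interval (from 1.43 to 45.54) leaves out 0, while the permutation test gave an exact p of 0.0616 and an adjusted p of 0.494. At site D the O2-PRS difference of 1.71 points stood against -28.38 points in O1-PRS, where PFC was at 28.4% ± 29.5 (SD, n = 6) and AMY at 56.8% ± 6.07 (SD, n = 6). That contrast had an exact p of 0.0323 and an adjusted p of 0.494. No contrast at the Htr2c sites passed the FDR, and their intervals were wide. Mean levels at A and B were higher in O2-PRS than in both other groups in each region, which widens the spread of the permutation test.

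The Igf1 mean was higher in PFC by 12.19 points in O2-PRS, 19.26 in O2-C and 13.35 in O1-PRS. The Gtf3c2 difference was 8.12 points in O2-PRS, -0.16 in O2-C and -3.15 in O1-PRS. Its contrasts had an exact permutation p of 0.149 against O2-C and 0.0171 against O1-PRS (adjusted p = 0.923 and 0.494). The Flna mean was higher in PFC by 3.42 points in O2-PRS and level within 0.03 points in O2-C and O1-PRS (exact p = 0.0938 and 0.0701 for the contrasts, adjusted p = 0.841 and 0.494). The Nova1 site had the lower mean in PFC in both other groups, on levels of 0.233 to 0.314%. Its contrast had an exact permutation p of 0.00757 against O2-C and 0.0608 against O1-PRS (adjusted p = 0.303 and 0.494). At such levels it rests on the last deposited decimal. Of the O2-C libraries, 5 of 7 PFC samples but 1 of 7 AMY samples were in the set 145 to 192, so that region and set largely coincide in that group. The O1-PRS libraries were all in sets that hold no O2-PRS sample. Set and group cannot be told apart there. One O2-C PFC sample, 155, was under 50 reads at 35.6% of sites. Without it 0 sites passed against O2-C and 6 had an unadjusted exact p under 0.05. One O1-PRS PFC sample, 36, was under that minimum at 15.8% of sites, and without it 0 sites passed against O1-PRS and 4 had an unadjusted exact p under 0.05. Samples 36 and 37 were the shallowest of O1-PRS PFC, with 149278 and 204588 reads summed over sites against 1194611 to 2545906 in the others. Sample 37 was kept throughout.

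**Figure D4:**
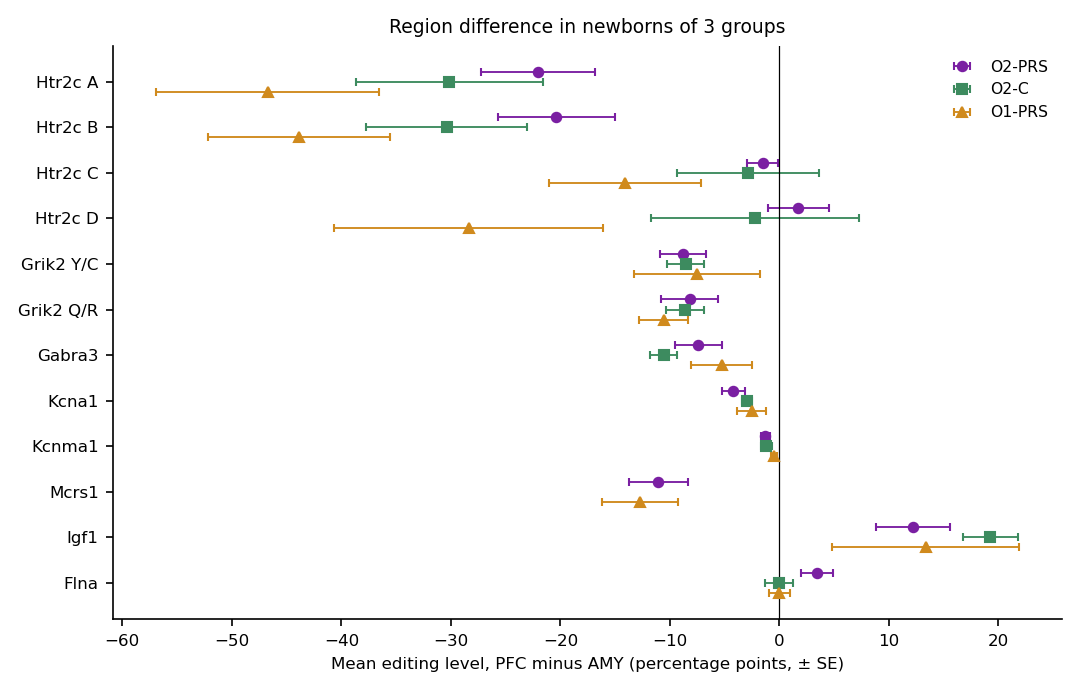
Mean editing level in PFC minus that in AMY (percentage points, ± SE) at 12 sites in O2-PRS (purple circles), O2-C (green squares) and O1-PRS (orange triangles) newborns; Mcrs1 had too few O2-C samples. The Grik2, Gabra3, Kcna1 and Kcnma1 differences lie below 0 in every group, and the Htr2c differences spread the most.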

How the data were processed

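mmPCR-seq data of O2-PRS, O2-C and O1-PRS newborn PFC and AMY were used. According to the submitters' notes and the study's methods, the authors merged read pairs, mapped them with BWA to rn4 plus splice-junction sequences, and used SAMtools. The deposited files give counts, of reads and of G-carrying reads at 179 listed positions. They also give the editing level, deposited as a fraction with 3 decimals, which was multiplied into a percent here. The 146 positions of the study's site list were tested, and the other 33 only checked for signal. The files place the Gtf3c2 site on chromosome 6, whereas the study's site list gives another chromosome. The site was matched by its position, and the chromosome of the files was kept.

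Samples were grouped by label. Sites needed at least 50 reads in at least 3 samples a side. Regions were compared by Mann-Whitney U tests (exact, two-sided, mid-ranks), adjusted by Benjamini-Hochberg separately over nonsynonymous and other sites (FDR 0.1), and exact permutation tests for mean levels and for differences between region effects. limma (log-odds, levels held between 0.1% and 99.9%) was an alternative. The text names every site past the FDR, every site without overlap, the 3 sites with the largest higher mean in PFC, and the sites of Htr2c and of listed receptor, channel, Flna, Igf1, Mmgt1, Adarb1 and Ankrd28 genes, except 1 result that is not reported here. The members, lists, tests and alternatives were chosen with earlier results of these data known. Steps were tested on simulated data with differences larger than at nearly all sites here. That does not show how well small differences are found. Python 3.11.15, numpy 2.4.6, scipy 1.17.1, R 4.3.3 and limma 3.58.1 were used.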

Additional observations from a re-analysis of the deposited data

Results flagged for a closer look

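In 7 of 80 groups of values (the named sites and the mean level, by region) one sample stood apart from the others of its region. Chance would give about 4.0, a rough figure that allows neither for rounded levels nor for sites that vary together. At Kcna1, PFC sample 124 was at 6.9% with the other PFC samples at 1.8 to 3.1%, and AMY sample 116 was at 11.1% with the others at 6.0 to 7.4%. At the Grik1 Q/R site, AMY sample 146 was at 37.9% with the others at 18.8 to 25.1%. At the Mmgt1 site at position 141126031, PFC sample 159 was at 3.1% with the others at 1.6 to 1.9%. The remaining such samples were at levels under 1%, where the rounding steps of the deposited levels are large against the spread. They were AMY sample 118 at 0.7% at the Grik2 E site and at 0.7% at the Gria3 site at position 3477161, and AMY sample 146 at 0.2% at the Nova1 site at position 66199121.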

How the results depend on the processing

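The count of 8 sites depended on the settings, with 7 to 12 sites called under at least 200 reads, means in place of ranks, labels permuted within library sets, or only sites with a mean of at least 1%. It was 4 with no coverage minimum, with only sites measured in all 13 samples, at FDR 0.05, and with unrounded levels, and the same 4 sites (Grik2 Y/C, Gabra3, Kcnma1, Htr2c A) were kept each time. Adjusting all sites, or all listed positions, together left 2, Grik2 Y/C and the Ankrd28 site at position 7169220. limma on log-odds called 16, 15 with the library set as a term and 18 with sex as a term, each time including all 8 and adding, among others, Htr2c B, Grik2 Q/R and Igf1. The largest library set alone and females alone gave 0. Without 1 sample 3 to 7 sites were called: 3 without AMY sample 117 or 115 (Htr2c A then had an adjusted p of 0.104 in the exact test), 4 without PFC 158, 159, 126 or 132 or AMY 118, 5 without PFC 133 or 129 or AMY 116, and 7 without PFC 124 or AMY 146 or 120. Grik2 Y/C, Gabra3 and Kcnma1 passed without any 1 of the 13.

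The mean level differed by -2.0 points over nonsynonymous sites and by -0.13 on the log-odds scale (exact permutation p = 0.0443 and 0.0117), both past 0.05, and by -0.91 to -0.57 points without 1 sample, past 0.05 without PFC sample 133 or AMY sample 120. Against O2-C, limma called 0 to 1 sites without 1 sample: Hist2h2ab without PFC sample 159. Against O1-PRS it called 0 throughout.

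Signs turned at sites that had not passed. Adarb1 at position 11709472 was at -1.69 points in the largest set and -0.36 in females, and from -1.13 to 4.10 without 1 sample. Adarb1 at position 11709485 was at -2.04 and -1.64 points, at -0.0168, -0.00497 and -0.0587 on the log-odds scale without a term, with library set and with sex, and from -1.15 to 1.5 without 1 sample. Gria4 L was at -0.035 and -0.02 points and from -0.00286 to 0.0371, and Gria3 L at -0.045 in the largest set, at -0.00993 on the log-odds scale with sex, and from -0.0286 to 0.111. Grik2 E ran from -0.04 to 0.02 without 1 sample. The causes were not tested. Depth limits the Mcrs1 site, measured in 9 samples. No paired analysis was possible because the regions share no sample number.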

Other observations

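A site in the 3' UTR of Plekhd1 (chromosome 6, position 104488036) was nearly unedited in PFC, at 0.2 to 1.8%, and ranged from 0.4 to 22.0% in AMY, where samples 117 and 116 were at 22.0 and 20.9% and the others at 0.4 to 4.7% (exact p = 0.0134, adjusted p = 0.235). The other groups did not show this pattern, with means in PFC and AMY of 1.85 and 1.71% in O2-C and 2.5 and 2.2% in O1-PRS. The highest PFC level in O1-PRS was 11.7%. At a second site of this gene (position 104487148) AMY samples 117 and 146 were at 14.1 and 7.6%. All other O2-PRS samples were at or under 0.7% there. Mpeg1, a gene of macrophages and microglia, had a 3' UTR site at 3.57% ± 0.964 (SD, n = 7) in PFC and 5.70% ± 1.09 (SD, n = 6) in AMY (exact p = 0.0105, adjusted p = 0.235). These sites were chosen after their values were seen.

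Of the 33 other listed positions, 5 had at least 50 reads in any O2-PRS sample. The 2 of them in the Htr2c amplicon were at 0% in every sample, with at least 5501 reads each.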
